A study of Mus musculus with 93 samples.

Results

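Heat shock chaperones are the proteins that fold new or damaged proteins, keep them soluble and hand them on for repair or disposal. HSP70 proteins bind exposed stretches of a client and are driven by J-domain partners, which bring the client and start the ATP cycle, while HSP110 proteins release the nucleotide and HSP90 proteins take over clients at a late folding step. In mitochondria a barrel of HSP60 closed by its lid HSP10 folds imported proteins. In leukocytes these genes are transcribed at rest and are raised by heat, by stress and on activation, largely through heat shock factor 1.

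The set was chosen by gene symbol and held 10 genes, of which 8 were measured here out of 18193 genes with a named probe set. They were the HSP70 Hspa8, the HSP110 genes Hsph1 and Hspa4, the J-domain genes Dnaja1 and Dnajb1, the HSP90 gene Hsp90aa1, and the mitochondrial pair Hspd1 (HSP60) and Hspe1 (HSP10). For the other 2, Hsf1 and Hsp90ab1, no probe set carried the symbol in the annotation used, and they were not analysed here. Each gene was read by its brightest probe set, judged by the mean of all 93 arrays, and every other probe set with that symbol alone is given beside it. A probe set is a group of short oligonucleotides on the array that reports a transcript as a single log2 value, and the 8 genes had 23 of them.

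RNA came from total white blood cells taken from the cheek of female mice after the red cells were lysed, and 93 samples were each hybridized to an Affymetrix mouse array. The 28 control arrays were from tumor-free wild-type FVB/NJ females, and the 65 tumor arrays from FVB/NJ females carrying MMTV/c-MYC, in which c-MYC or a more stable variant of it is driven by the mouse mammary tumor virus promoter, active mainly in mammary epithelium, so that the animals develop mammary tumors. Both groups were bred continuously and matched for age and parity, the mean age at the last blood sample being 431 days, and the transgenic animals came from several lines that the labels do not tell apart. The labels divided the arrays into a training and a validation cohort and name no animals, so every error and p-value here rests on the variation among arrays, which may be partly technical. Tumor arrays were further divided by the number in their label, into 13 early-numbered arrays (training 1 to 5 and validation 1 to 8) and 52 late-numbered arrays (training 6 to 32 and validation 9 to 33), a division to which the labels give no meaning. Below, these are the early and late tumor arrays. In bulk RNA, fewer cells of a type and less RNA per cell cannot be told apart.

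The 3 sets of arrays differed in measures that carry no chaperone signal. The probe set of dap, a bacterial transcript added to RNA as a spike-in control, had a mean log2 value of 2.22 ± 0.322 (SD, n = 28) for control, 2.70 ± 0.505 (SD, n = 13) for early tumor and 8.56 ± 0.792 (SD, n = 52) for late tumor arrays, and 52 of 52 late arrays lay above the highest control. The actin 5′ minus 3′ difference, which falls when transcripts lose their 5′ end, was −0.64 ± 0.103 in control, −1.42 ± 0.227 in early and −0.54 ± 0.282 in late arrays, and 13 of 13 early arrays lay below the lowest control. The same difference for Gapdh was −1.179 ± 0.134 in control, −1.385 ± 0.339 in early and −1.32 ± 0.454 in late arrays. By Gapdh, 3 of 13 early and 6 of 52 late arrays lay below the lowest control, so it set the early arrays apart less than actin did. Tumor status and the handling that these controls record cannot be told apart in either comparison with the controls. Arrays 19 and 9 of the validation tumors, both late, and array 2, early, had the lowest median correlation with the other arrays (0.911, 0.931 and 0.918, across probe sets). The leukocyte list (Ptprc, Coro1a, Laptm5, Cd53 and Arhgdib) averaged 12.8 in control, 12.85 in early and 12.86 in late arrays on the log2 scale while the mammary epithelial list averaged 3.765, 3.953 and 4.002.

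The question was how the transcript levels of the chaperones in blood cells of tumor-bearing animals stood against those of tumor-free animals. In late tumor arrays 5 of the 8 genes were lower than in control (Hspa8, Hsp90aa1, Hsph1, Dnajb1 and Hspe1) and 0 were higher by limma at an adjusted p under 0.05, beside 20.5% of all genes called lower and 25.6% called higher. The members had a median log2 difference of −0.21, beside 0.040 over all genes. In early tumor arrays 6 of the 8 were lower (Hspa8, Dnaja1, Dnajb1, Hspd1, Hspe1 and Hspa4) and Hsp90aa1 was higher, beside 29% of all genes lower and 34.3% of them higher. Their median was −0.34, beside 0.071 over all genes. The 2 comparisons share their control arrays. Between late and early arrays themselves 4 genes were higher in late (Hspa8, Dnaja1, Hspd1 and Hspe1) and 3 lower (Hsp90aa1, Hsph1 and Dnajb1), beside 31.5% higher and 38.3% lower of all genes. Over all 65 tumor arrays 7 of 8 were lower than control and 0 higher, the exception being Hspd1, beside 19.6% lower and 22.7% higher. These counts hold for the brightest probe set of each gene, and several genes changed direction with another one, as given with each gene. Arrays outside the control range are counted below for each gene, and the share of all genes with such counts was not computed.

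**Figure D1:**
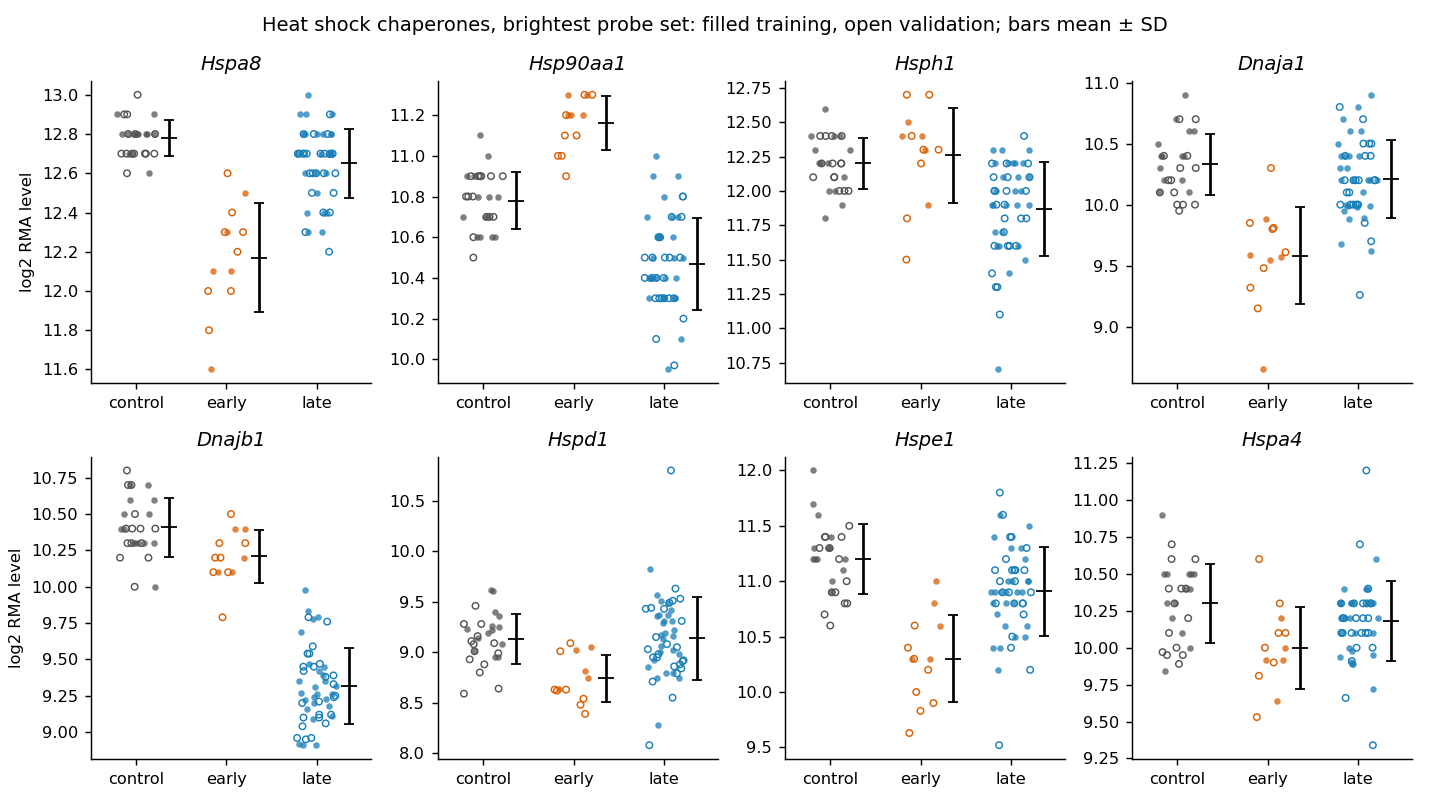
Level of each measured chaperone on every array (y axis, log2 RMA value of its brightest probe set) in control (n = 28), early tumor (n = 13) and late tumor (n = 52) arrays. Filled points are training and open points validation arrays, and the bars give mean ± SD. Dnajb1 was below the lowest control on 52 of 52 late arrays, Hsp90aa1 was above the highest control on 8 of 13 early arrays, and Hspa8 was below the lowest control on 12 of 13 early arrays. The share of all genes with such counts was not computed.

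Hspa8, the constitutive cytosolic HSP70 that folds new proteins and uncoats clathrin vesicles, was lowest in the early tumor arrays. By probe set 1455789_x_at, control arrays ran from 12.6 through a median of 12.8 to 13 on the log2 scale. Early arrays ran from 11.6 through 12.2 to 12.6, and late arrays from 12.2 through 12.7 to 13. Of the 13 early arrays 12 were below the lowest control, as were 12 of the 52 late arrays, so the early set overlapped the controls at a single array. The difference from control was −0.60 ± 0.0602 (SE) in early arrays, a 1.52-fold lower level (limma adjusted p = 9.07e-15), and −0.13 ± 0.0419 in late arrays (limma adjusted p = 0.01). Values of 10 and above were deposited in steps of 0.1, and the late difference is close to a single step. All 3 other probe sets were lower in early arrays, by −0.83, −0.91 and −1.01, and none of them was called in late arrays (0.084, 0.13 and 0.016). The suffix x marks probe sets in which some oligonucleotides also match other transcripts, which here holds for 1455789_x_at and 1420623_x_at.

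Hspa4 and Hsph1, both nucleotide exchange factors of the HSP110 family, did not share a pattern. Hspa4 (1416146_at) ran from 9.84 through 10.35 to 10.9 in control, from 9.53 through 10 to 10.6 in early and from 9.34 through 10.2 to 11.2 in late arrays. Its 3 ranges overlapped widely, with 3 of 13 early and 3 of 52 late arrays below the lowest control. The early difference was −0.30 ± 0.0925 (limma adjusted p = 0.00389) and the late one −0.12 ± 0.0645 (limma adjusted p = 0.114). The 3 other Hspa4 probe sets went the other way round: in late arrays they were lower by −0.68, −0.36 and −0.64, all called, and in early arrays, where they spread widely, they differed by 0.11, −0.16 and −0.084, none called. Hsph1 (1425993_a_at) ran from 11.8 through 12.2 to 12.6 in control, from 11.5 through 12.3 to 12.7 in early and from 10.7 through 11.9 to 12.4 in late arrays. It was lower in late arrays by −0.33 ± 0.0705 (limma adjusted p = 4.93e-05), with 17 of 52 below the lowest control, and differed by 0.071 ± 0.101 in early arrays (limma adjusted p = 0.547). Its second probe set, 1423566_a_at, was lower in early arrays by −0.55 ± 0.152 (limma adjusted p = 0.00126) and by −0.14 ± 0.106, not called, in late arrays, so that late minus early was −0.40 by the brighter and 0.41 by the dimmer one.

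Dnajb1, the heat-inducible J-domain protein of the HSP40 family that feeds clients to HSP70, gave the largest difference among the members, and its 2 probe sets opposed each other. By 1416755_at, control arrays ran from 10 through 10.4 to 10.8, early arrays from 9.79 through 10.2 to 10.5 and late arrays from 8.91 through 9.27 to 9.98. No late array reached the lowest control, while 12 of 13 early arrays lay within the control range. How many other genes separate this fully was not computed. The late difference was −1.09 ± 0.0568, a 2.13-fold lower level (limma adjusted p = 2.22e-31), against −0.20 ± 0.0816 in early arrays (limma adjusted p = 0.0279), and late minus early was −0.89 ± 0.0755 (limma adjusted p = 4.94e-19). The early call was weak: of 29 alternatives, 10 lost it with the sign kept, and 1 more, the second brightest probe set, reversed the sign without a call. Among the 10 were leaving out array 4 of the validation tumors, the lowest of its set (−0.17 ± 0.0828, limma adjusted p = 0.0722), centring the arrays on their medians (−0.13 ± 0.0894, limma adjusted p = 0.21) and quantile normalization (−0.14 ± 0.0833, limma adjusted p = 0.144). By 1416756_at, control arrays ran from 7.17 through 7.59 to 8.07, early arrays from 7.13 through 7.81 to 8.81 and late arrays from 7.42 through 8.11 to 8.73. This probe set was higher in late arrays by 0.45 ± 0.0688, or 1.36-fold (limma adjusted p = 3.32e-08), and by 0.17 ± 0.0988 in early arrays (limma adjusted p = 0.129). On the same array, the distance from the brighter to the dimmer probe set was 2.37 to 3.23 in control, 1.49 to 3.05 in early and 0.72 to 1.82 in late arrays, so that control and late arrays did not overlap in it. This distance was computed after the values of both probe sets had been seen and is given without a test or a share over other genes. The data therefore hold no single direction for Dnajb1 in late arrays.

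Dnaja1, a farnesylated J-domain partner of cytosolic HSP70, was lower in early arrays by its brightest probe set. By 1416288_at, control arrays ran from 9.95 through 10.3 to 10.9, early arrays from 8.65 through 9.59 to 10.3 and late arrays from 9.26 through 10.2 to 10.9. Array 4 of the training tumors was the lowest of all, and 12 of 13 early arrays were below the lowest control. The early difference was −0.74 ± 0.106, or 1.67-fold (limma adjusted p = 4.77e-09), and the late one −0.12 ± 0.0737 (limma adjusted p = 0.187). The 2 dimmer probe sets were not called in early arrays (0.18 and 0.13), and 1460179_at was higher in late arrays by 0.44 ± 0.0658 (limma adjusted p = 1.74e-08).

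Hsp90aa1, the stress-inducible cytosolic HSP90, was higher than control in early arrays and lower in late arrays by its brightest probe set. By 1438902_a_at, control arrays ran from 10.5 through 10.8 to 11.1, early arrays from 10.9 through 11.2 to 11.3 and late arrays from 9.95 through 10.45 to 11. All 13 early arrays lay above the control mean, 8 of them above the highest control, and 26 of 52 late arrays lay below the lowest control. The early difference was 0.39 ± 0.0678, or 1.31-fold (limma adjusted p = 7.4e-07), the late one −0.31 ± 0.0472, or 1.24-fold (limma adjusted p = 2.86e-08), and late minus early −0.70 ± 0.0627 (limma adjusted p = 1.49e-17). The second brightest probe set ran the other way: 1437497_a_at was −0.59 ± 0.0902 in early (limma adjusted p = 2.68e-08) and 0.18 ± 0.0628 in late arrays (limma adjusted p = 0.0143). The dim 1441827_x_at moved with the brightest, at 0.92 in early and −0.33 in late arrays, both called, and 1426645_at and 1433251_at were called in neither. The distance from the brightest to the second brightest was 0.3 to 0.99 in control, 1.1 to 2.12 in early and −0.7 to 0.6 in late arrays, so that early arrays did not overlap the controls in it. Here too no share over other genes was computed.

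**Figure D2:**
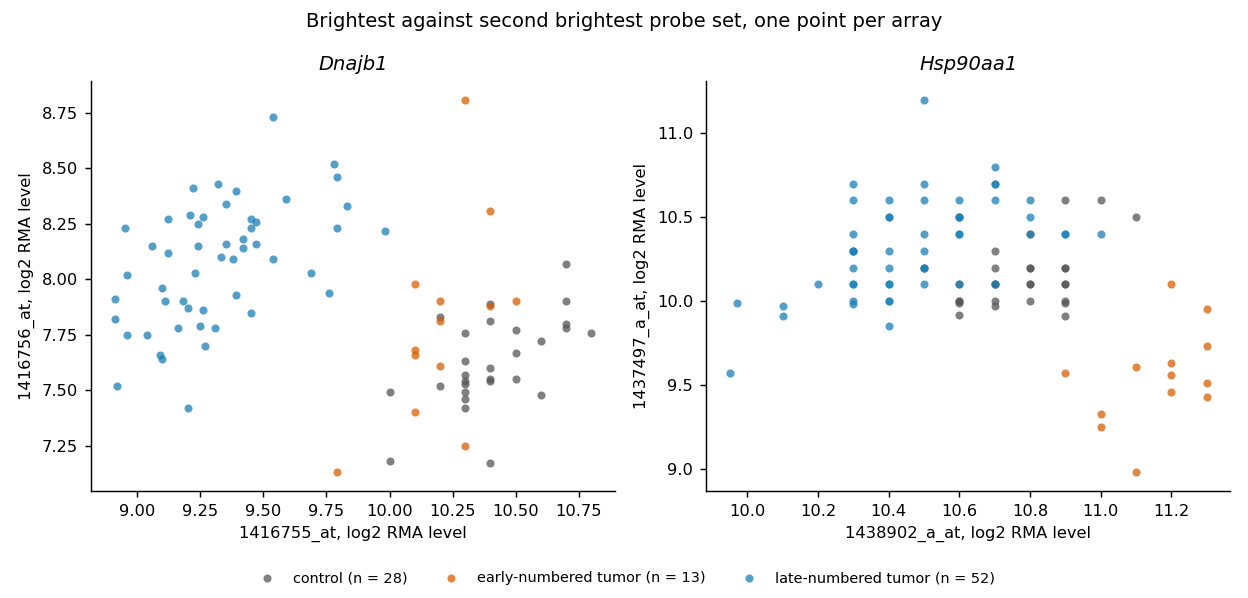
Brightest (x axis) against second brightest probe set (y axis) of Dnajb1, left, and Hsp90aa1, right, in log2 RMA values, 1 point per array (28 control, 13 early tumor, 52 late tumor). For Dnajb1 the late arrays lie left of and mostly above the controls, and for Hsp90aa1 8 of the 13 early arrays lie right of all controls, the early set lying lower and to the right with overlap on both axes.

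Of the 23 probe sets, 10 were called lower and 3 higher in late arrays, beside 19.9% lower and 23.9% higher of all 45037 probe sets. In early arrays 12 were lower and 2 higher, beside 24.6% and 37.9%. Of the 7 genes with more than 1 probe set, Hsp90aa1 and Dnajb1 had probe sets called in opposite directions in late arrays, and Hsp90aa1 alone in early arrays. Between late and early arrays there were 3 such genes, Hsph1 besides those 2. Hspa8 in early arrays and Hspe1 in both sets were the genes with more than 1 probe set in which every probe set was called in the same direction. Which exons or 3′ ends the probe sets match was not analysed here.

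**Figure D3:**
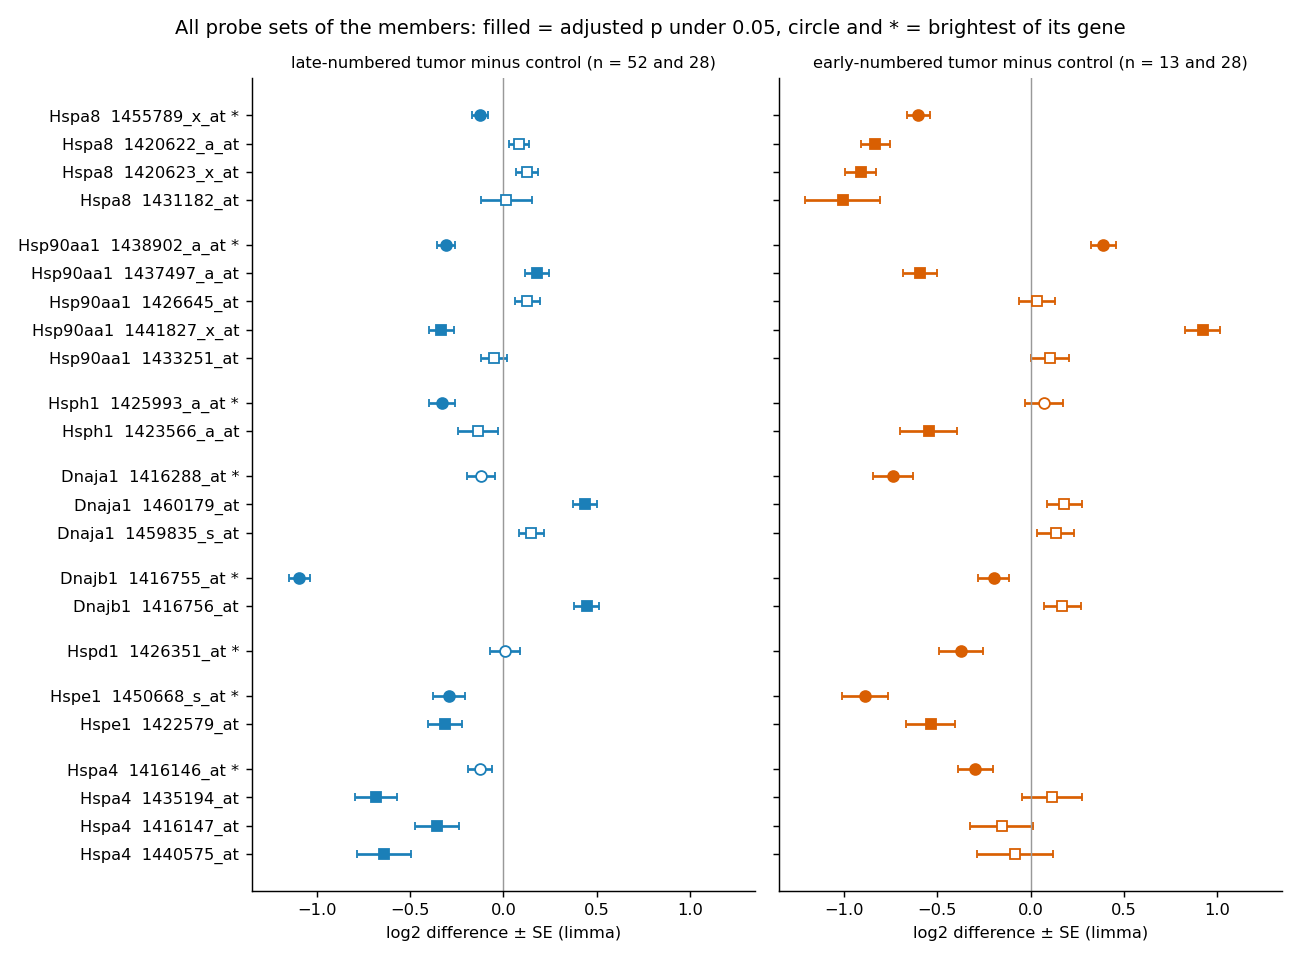
Log2 difference ± SE from control (x axis, limma) for all 23 probe sets of the 8 genes (y axis) in late tumor arrays, left, and early tumor arrays, right. Circles with an asterisk are the brightest probe set of a gene, squares the others, and filled points passed an adjusted p under 0.05. The 4 Hspa8 probe sets lie together between −0.60 and −1.01 in early arrays, while those of Dnajb1 lie at −1.09 and 0.45 in late arrays.

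Hspd1 and Hspe1, the barrel and lid of the mitochondrial chaperonin, are transcribed away from each other from a shared promoter, and the sequence is shown because both genes were lower in early arrays. RefSeq's windows on GRCm38.p6, each from 250 bases before to 50 bases after a transcription start, covered chr1:55087898-55088197 on the plus strand for Hspe1 and chr1:55087883-55088182 on the minus strand for Hspd1, which have 285 bases in common. A heat shock element, the site bound by heat shock factors, is a run of inverted GAA units. The 3-unit form searched was GAANNTTCNNGAA on both strands, and it occurred in 0.603% of 32851 windows of the same length. The shared stretch held 2 overlapping matches, at chr1:55088059-55088071 and chr1:55088064-55088076, the first of them starting 89 bases before the start of Hspe1. The Hspe1 window reads as follows, 5′ to 3′ on the plus strand, with the run covered by the matches in capitals.

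Hspe1: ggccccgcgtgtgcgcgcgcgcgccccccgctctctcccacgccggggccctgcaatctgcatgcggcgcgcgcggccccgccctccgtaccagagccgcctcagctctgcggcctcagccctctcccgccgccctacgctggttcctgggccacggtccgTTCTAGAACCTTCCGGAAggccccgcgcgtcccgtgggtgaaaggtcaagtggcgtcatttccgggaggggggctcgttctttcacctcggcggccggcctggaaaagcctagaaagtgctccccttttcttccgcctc

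A second window of Hspd1, at chr1:55088194-55088493, held none. Of the other members with a window, Hsph1 held 1 match, TTCTGGAAAGTTC at chr5:149636288-149636300 on the minus strand, beginning 37 bases into one of its annotated transcripts and 16 into another. The windows of Dnaja1, Dnajb1 and Hspa4 held none. A match describes letters in a window and not binding, and no match says only that these letters are not in these windows.

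Hspe1 (1450668_s_at) was lower in both sets, more so in early arrays. Control arrays ran from 10.6 through 11.2 to 12, early arrays from 9.63 through 10.3 to 11 and late arrays from 9.52 through 10.9 to 11.8. Of the 13 early arrays 9 lay below the lowest control, against 9 of 52 late arrays. The differences were −0.89 ± 0.124 in early arrays, or 1.85-fold (limma adjusted p = 2.2e-09), and −0.29 ± 0.0865 in late arrays (limma adjusted p = 0.00364). The second probe set, 1422579_at, was lower in both as well, by −0.54 ± 0.131 and −0.31 ± 0.091. Hspd1 (1426351_at, its only probe set) ran from 8.59 through 9.13 to 9.62 in control, from 8.39 through 8.64 to 9.09 in early and from 8.08 through 9.11 to 10.8 in late arrays. It was lower in early arrays by −0.37 ± 0.117 (limma adjusted p = 0.0042), with 13 of 13 below the control mean, a call lost by quantile normalization (−0.25 ± 0.117, limma adjusted p = 0.0702), and differed by 0.0087 ± 0.0816 in late arrays (limma adjusted p = 0.945). Its highest and lowest values were both on late arrays, numbers 19 and 9 of the validation tumors, 2 of the arrays that stood apart. Without the 3 arrays that stood apart the late difference was −0.0058 ± 0.0668.

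Several pairs of members varied together within the control arrays and within the late arrays. Correlations were computed for 28 pairs in each of 3 sets, 84 in all, with 100000 permutations and Benjamini-Hochberg adjustment over all of them. In control arrays 13 pairs passed an adjusted p of r under 0.05, 11 of them positive. The tightest pair was Hspd1 and Hspe1, with r = 0.871 and rho = 0.819 over 28 control arrays (permutation p = 1e-05, the smallest that the permutations allow, adjusted p = 0.00014), r = 0.827 without the 2 arrays farthest from the median of Hspd1, and r = 0.89 and 0.815 within the training and validation arrays. In late arrays it was r = 0.594 and rho = 0.461 (permutation p = 3e-05, adjusted p = 0.00028), falling to r = 0.405 without the 2 farthest arrays.

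The cytosolic genes formed other pairs. In control arrays Dnaja1 and Dnajb1 gave r = 0.659 and rho = 0.621 (permutation p = 0.00024, adjusted p = 0.00144), Hsp90aa1 and Hsph1 r = 0.621 and rho = 0.622 (permutation p = 0.00054, adjusted p = 0.00252), and Hsp90aa1 and Dnajb1 r = 0.612 and rho = 0.614 (permutation p = 0.00048, adjusted p = 0.00252). Hspa4 ran against Hsp90aa1, with r = −0.668 and rho = −0.642 (permutation p = 0.00017, adjusted p = 0.00116), r = −0.59 without the 2 farthest arrays and r = −0.77 and −0.57 within the cohorts. In late arrays 17 of 28 pairs passed and all 17 were positive. The strongest were Hsph1 and Hspd1 (r = 0.765, rho = 0.813, r = 0.771 without the 2 farthest arrays) and Dnaja1 and Dnajb1 (r = 0.708, rho = 0.698, r = 0.694), each with an adjusted permutation p of 0.00014. The pair of Hspd1 and Hspa4 (r = 0.449, adjusted permutation p = 0.00962) rested on 2 late arrays, since r was −0.0153 without them and rho was 0.139. In the 13 early arrays 1 pair passed by Pearson's r, Hspa8 and Dnaja1 (r = 0.692, adjusted permutation p = 0.0259), and it fell to r = 0.452 without the 2 farthest arrays, with rho = 0.557 (adjusted permutation p = 0.106). Whether correlations differed between the sets was not tested. The share of other gene pairs that would pass was not computed. With the mean of each set and cohort taken off, over all arrays, members were ranked by r among 18192 genes. For Hspd1, Hsph1 ranked 774 and Hspe1 840, so many other genes followed Hspd1 more closely. For Dnajb1, Dnaja1 ranked 1 and Hspa8 2. Ranks without the arrays that stood apart were not computed.

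**Figure D4:**
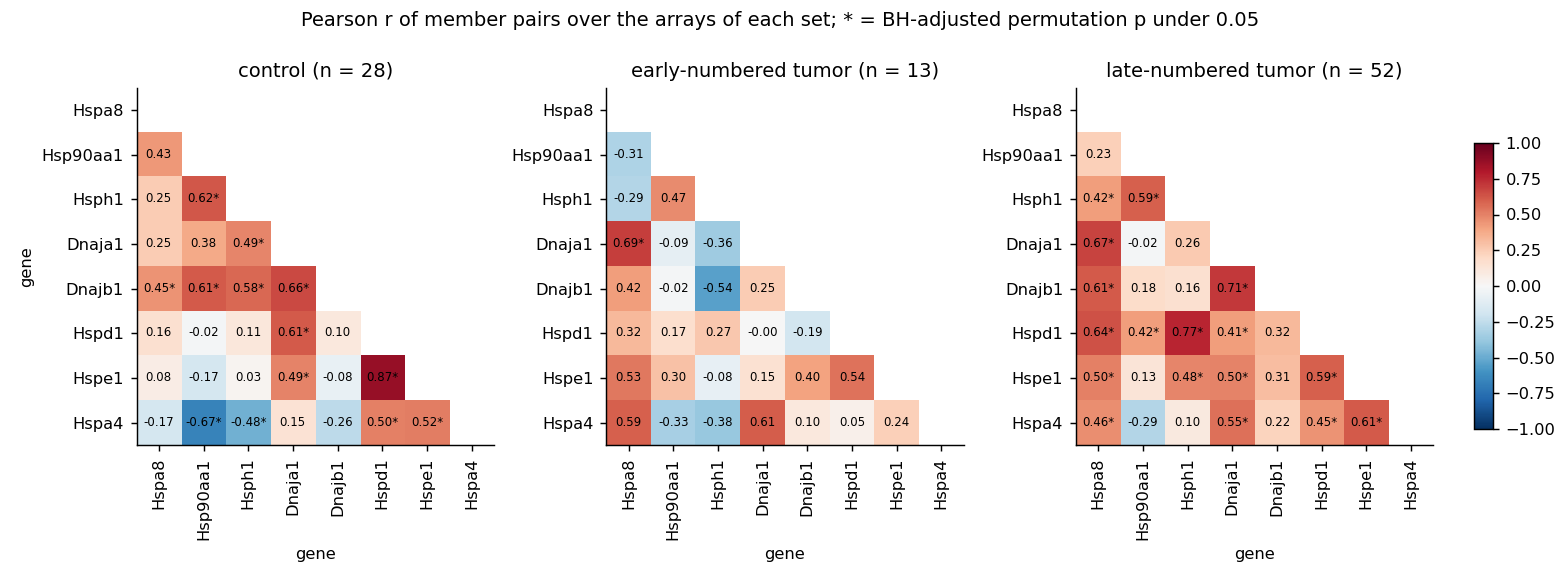
Pearson r of each pair of the 8 chaperones (both axes list the genes) over 28 control, 13 early tumor and 52 late tumor arrays, coloured from −1 to 1. Asterisks mark a Benjamini-Hochberg adjusted permutation p under 0.05, which 13, 1 and 17 of 28 pairs reached. The share of other gene pairs that would reach it was not computed.

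Marker transcripts of blood cell types differed between the groups and went with several members, and they are not cell counts. In blood drawn after euthanization, the paper reports similar leukocyte profiles in tumor-bearing mice and matched controls. The marker calls stand beside 20.5% of all genes lower and 25.6% higher in late arrays. In early arrays 29% were lower and 34.3% higher. Of 9 B cell markers 8 were lower than control in early and in late arrays, of 9 T cell markers 7 were lower in early and 4 in late arrays, and of 11 neutrophil markers 8 were higher in late arrays, with 1 higher and 1 lower in early arrays. Of 6 monocyte markers 4 were higher in late and 3 lower in early arrays, of 7 NK cell markers 5 were lower in early arrays, and of 11 proliferation genes 6 were higher and 2 lower in early and 4 higher in late arrays. The mean of the T cell list ran from 9.20 to 10.8 in control, from 8.69 to 9.87 in early and from 8.62 to 11.26 in late arrays on the log2 scale, that of the B cell list from 8.27 to 9.99, 6.77 to 9.19 and 6.24 to 9.70, and that of the neutrophil list from 8.92 to 10.91, 8.91 to 11.55 and 9.71 to 11.63. Over the 28 control arrays the T cell mean went with Hspe1 at r = 0.9 and rho = 0.828 and with Hspd1 at r = 0.831 and rho = 0.791 (adjusted permutation p = 0.000171 for each over 120 relations), with r = 0.865 and 0.749 without the 2 farthest arrays. In the 52 late arrays the same relations were r = 0.735 and rho = 0.665 for Hspe1 and r = 0.755 and rho = 0.667 for Hspd1 (adjusted permutation p = 0.000171 for each), and r = 0.657 and 0.647 without the 2 farthest. Hsph1 went with the T cell mean (r = 0.694, rho = 0.682) and against the neutrophil mean (r = −0.736, rho = −0.727) in late arrays, and Dnaja1 against the neutrophil mean in control arrays (r = −0.752, rho = −0.714), each with an adjusted permutation p of 0.000171. The actin 5′ minus 3′ difference passed with 0 of 8 members in any set by Pearson's r, which lay between −0.463 and 0.45, while by rho Hspa8 passed in late arrays (−0.411, adjusted permutation p = 0.0208).

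**Figure D5:**
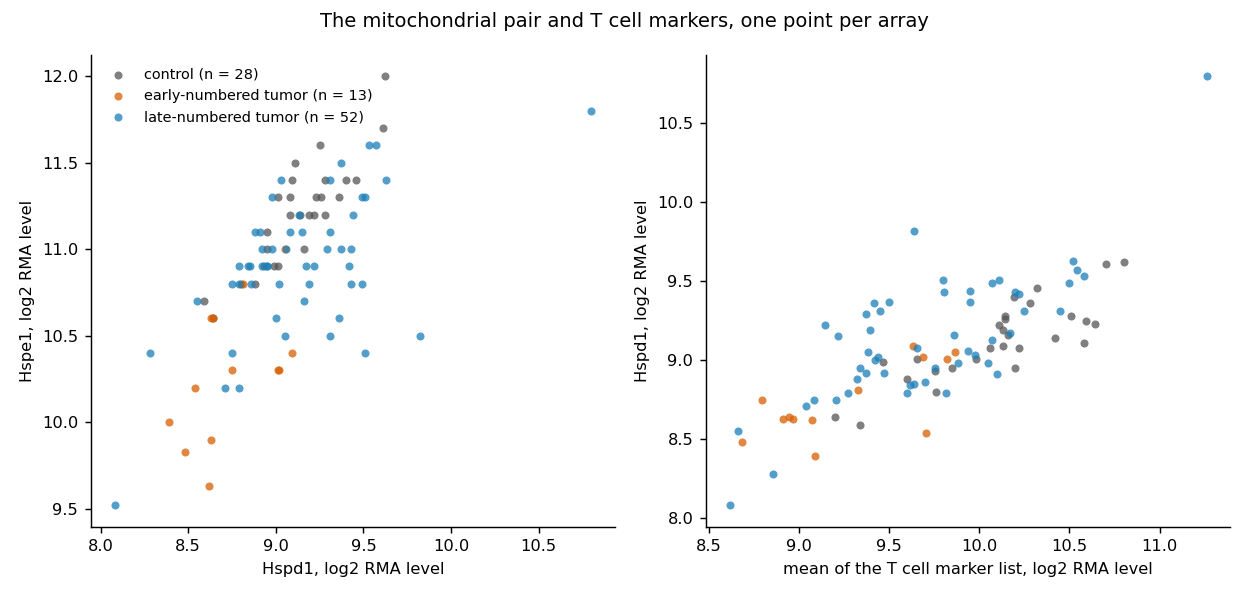
Hspd1 against Hspe1 (left) and the mean of the T cell marker list against Hspd1 (right), log2 RMA values, 1 point per array in control (n = 28), early tumor (n = 13) and late tumor (n = 52) arrays. In control arrays r was 0.871 on the left and 0.831 on the right, and the isolated late point with Hspd1 at 10.8 is array 19 of the validation tumors.

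With the means of the B cell, T cell and neutrophil lists as covariates, some members kept their calls, several of these with smaller differences, and others lost them. Dnajb1 by its brightest probe set stayed at −1.04 in late arrays (limma adjusted p = 8.72e-25), and Hsp90aa1 stayed at −0.22 in late (limma adjusted p = 0.000226) and 0.40 in early arrays (limma adjusted p = 0.000103). In early arrays Hspa8 went from −0.60 to −0.36 (limma adjusted p = 2.92e-05), Dnaja1 from −0.74 to −0.41 (limma adjusted p = 0.0103) and Hspe1 from −0.89 to −0.34 (limma adjusted p = 0.0159), so their calls held at differences over 1.5 times smaller. Hspd1, Hspa4 and Dnajb1 lost their early difference, at 0.053 (limma adjusted p = 0.733), 0.049 (limma adjusted p = 0.765) and −0.11 (limma adjusted p = 0.462). Hspa8, Hsph1 and Hspe1 lost their late difference, at −0.060, −0.067 and −0.066 (limma adjusted p = 0.324, 0.459 and 0.529), and Hspd1 became higher in late arrays by 0.28 (limma adjusted p = 0.000192). With the actin difference as a covariate instead, Hspa8, Hsp90aa1, Dnaja1, Hspd1 and Hspe1 kept their early calls, at −0.77, 0.37, −0.81, −0.63 and −0.66, while Dnajb1 at −0.19 ± 0.118 and Hspa4 at −0.29 ± 0.134 did not (limma adjusted p = 0.177 and 0.068), their differences being about as large as before and their SE larger. All 13 early arrays lay below the lowest control in this measure. The adjustment therefore reaches beyond the control range and cannot separate 5′ loss from the early set. No conclusion about 5′ loss is drawn from the kept calls.

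No member's effect differed between the cohorts by limma at an adjusted p under 0.05. The smallest limma adjusted p was 0.447, for Dnaja1 in early arrays. Of all 45037 probe sets, 145 passed that threshold in early and 0 in late arrays. At an unadjusted p under 0.05 there were 0 of 16 member terms, beside 5618 probe sets in early and 990 in late arrays. Few member terms were thus to be expected, and the counts show nothing particular to the chaperones. Within the training and the validation arrays alone, late minus control was −1.08 and −1.10 for Dnajb1 and −0.27 and −0.35 for Hsp90aa1, and early minus control was −0.67 and −0.56 for Hspa8, −0.97 and −0.57 for Dnaja1, −0.71 and −0.98 for Hspe1 and 0.47 and 0.33 for Hsp90aa1, all called, as was Hsph1 in late arrays (−0.29 and −0.36). With fewer arrays in each cohort, other calls did not hold in both. In late arrays Hspe1 was −0.43 in training and −0.15 in validation (limma adjusted p = 0.000985 and 0.456), and Hspa8 −0.11 and −0.14 (limma adjusted p = 0.154 and 0.0722). In early arrays Dnajb1 was −0.18 and −0.21 (limma adjusted p = 0.252 and 0.109), Hspd1 −0.38 and −0.35 (limma adjusted p = 0.0321 and 0.107) and Hspa4 −0.42 and −0.20 (limma adjusted p = 0.00386 and 0.238). The cohort values above are of the brightest probe sets. Over all 65 tumor arrays Dnajb1 by its brightest probe set differed from control by −0.92 ± 0.0867 (limma adjusted p = 2.18e-15). Its other probe set, 1416756_at, was higher by 0.39 ± 0.0708 (limma adjusted p = 3.36e-06). By their brightest probe sets Hspe1 differed by −0.41 ± 0.0948 (limma adjusted p = 0.000245) and Hspd1 by −0.068 ± 0.0845 (limma adjusted p = 0.529).

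The genes most like each member, after the mean of each set and cohort was taken off, were sought among 10596 genes over the 93 arrays. Values of r without the arrays that stood apart were not computed. Among late arrays Hspd1, Hspe1 and Hspa4 each had the lowest value on array 9 and the highest on array 19 of the validation tumors. Their r may rest partly on these arrays. Hspd1 was nearest to Ddx18, a nucleolar RNA helicase (r = 0.881), the TRiC chaperonin subunit Cct3 (0.879) and Prmt7, an arginine methyltransferase (0.86). Hspe1 was nearest to Nop10 (0.873) and Emg1 (0.868), both of ribosome assembly, and to the mitochondrial import receptor Tomm20 (0.859). Hspa4 was nearest to Slc25a3, the mitochondrial phosphate carrier (0.814), the RNA-binding protein gene Khdrbs1 (0.811) and Adh5 (0.796), and Hsph1 to Cnp (0.771), the kinase Fyn (0.744) and Pitpnm2 (0.726). Hspa8 was nearest to Psmc4, a proteasome subunit (0.709), Ctu2 (0.685) and Rbmxl1 (0.674). Dnaja1 was nearest to Usp16, a deubiquitinase (0.69), the splicing factor Tra2b (0.66) and Tex30 (0.654), and Hsp90aa1 to D030056L22Rik (0.689), the kinase Hipk2 (0.674) and the stress granule gene G3bp2 (0.672). Dnajb1 had the lowest values, with Socs7 (0.467), the phosphatase Cdc25a (0.445) and Zfp809 (0.439), so that outside the members no gene ran close to it.

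Other chaperones were counted by family, from lists fixed with earlier results known. The counts were read against 25.6% of all genes higher and 20.5% lower in late arrays, and 34.3% higher and 29% lower in early arrays. Genes named below are up to 3 per list with the smallest limma p between late and early arrays. Unlike differences in the 2 sets are therefore what this choice picks, and they do not describe a family. Of 12 other HSP70 and HSP110 genes, 4 were higher and 3 lower in late arrays, near those shares, and 5 higher and 1 lower in early arrays. Every gene of these lists was read by its brightest probe set alone. Whether another probe set changes a direction, as for several members, was not examined. Hspa1b, the heat-inducible HSP70, averaged 7.83 ± 0.612 (SD) in control, 9.81 ± 0.71 in early and 8.29 ± 0.705 in late arrays, and was higher by 1.98 ± 0.224 in early (limma adjusted p = 1.74e-12) and 0.46 ± 0.156 in late arrays (limma adjusted p = 0.0108). Hspa9, the mitochondrial HSP70, was lower by −0.69 ± 0.0755 in late arrays, as was Hspa13 of the endoplasmic reticulum (−0.48 ± 0.0668), and neither was called in early arrays. Both other HSP90 genes were lower in early arrays, Hsp90b1 of the endoplasmic reticulum by −0.51 and mitochondrial Trap1 by −0.91, and in late arrays Hsp90b1 was higher by 0.19 while Trap1 was not called.

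Of 21 other J-domain genes 12 were lower and 3 higher in late, and 10 lower and 2 higher in early arrays. Dnajc8, a spliceosome-associated member, was −0.42 in late and 0.36 in early arrays, Dnajb12 of the endoplasmic reticulum 0.61 and −0.49, and Dnajb6, which holds back protein aggregation, −0.18 and 0.77, all called. Of 20 cochaperones measured of 22, 10 were higher and 3 lower in late arrays, and 3 higher and 12 lower in early arrays. Cdc37, which brings kinases to HSP90, was 0.45 ± 0.0735 in late and −1.39 ± 0.105 in early arrays (limma adjusted p = 9.6e-21). Ahsa1, the activator of the HSP90 ATPase, was 0.76 ± 0.0615 in late arrays (limma adjusted p = 1.6e-19), and the ubiquitin ligase Stub1 was −1.02 ± 0.106 in early arrays, where Ahsa1 was not called, while in late arrays Stub1 was not called.

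Of 14 subunits of TRiC, the cytosolic chaperonin, and of prefoldin, its client carrier, 11 were lower and 1 higher in early arrays, against 6 lower and 5 higher in late arrays. Cct7 and Cct5 were −0.79 and −1.02 in early and 0.52 and 0.24 in late arrays, and the prefoldin subunit Vbp1 was 0.54 in early and −0.11 in late arrays, all called. Of 11 mitochondrial quality control genes measured of 12, 10 were lower and 0 higher in early arrays, with a median of −0.89, against 2 lower and 6 higher in late arrays. Spg7 and Afg3l2, both subunits of an inner membrane protease, were −0.89 and −1.28 in early arrays, and Timm44, of the import motor, −1.08. Of 9 small heat shock proteins 4 were higher and 2 lower in early and 2 higher in late arrays, where Hspb6 stood at 0.59 and Hspb9 at 0.53, while Hspb8 was higher in early arrays by 0.34. These 3 are dim, with mean log2 levels of 4.96, 4.11 and 4.46 in control arrays, against array medians of 4.3 to 4.91. Of 5 heat shock factors and binders, Hsbp1, which binds heat shock factor 1, was 0.50 in late and −0.57 in early arrays, and Hsf2bp was called in neither. Of the whole list 1 was called in late and 2 in early arrays, the second early call being Hsf5, whose mean log2 level of 2.09 in control and 2.70 in early arrays lay as low as that of dap in the controls, so no fold is drawn from it.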

How the data were processed

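Leukocyte RNA was amplified (NuGEN Ovation) and hybridized to Affymetrix mouse arrays. The deposited values are log2 expression from RMA, which corrects background, normalizes by quantiles and gives a single value per probe set. The sources used here do not give its version. The table held 45101 probe sets, 64 of them controls, with values from 1.23 to 14.9, all with at most 3 significant digits. Array medians ran from 4.3 to 4.91, so the deposited values of the arrays did not share a common distribution. Precision rests on the number of arrays.

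The platform annotation gave 34945 of the 45037 probe sets tested a single symbol, 932 several and 9160 none, and 34741 matched RefSeq. limma 3.58.1 in R 4.3.3 (lmFit, eBayes with trend, two-sided) was fitted to all 93 arrays with the set (control, early, late) and cohort, and Benjamini-Hochberg adjustment ran over all probe sets, with an adjusted p under 0.05 as a call. Tumor against control was fitted with cohort. Errors are SE of differences and SD of levels. The methods' factor models were not rebuilt. Correlations used 100000 permutations in Python 3.11.15. Scripts were tested on simulated data. The genes named were all members and their probe sets, the 3 genes most like each member, and up to 3 genes per list with the smallest p between late and early arrays. Members, lists and the division of arrays were chosen with earlier results of these data known. Alternatives covered cohorts, controls, scaling, filters, probe sets, covariates and single arrays, and 2 were added after the data were seen.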

Additional observations from a re-analysis of the deposited data

Results flagged for a closer look

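Array 4 of the early training tumors had Dnaja1 at 8.65, with the next of the 5 arrays at 9.55, a gap of 0.732 of the range. It was the only one of 16 checks of a member in an early cohort to stand out, and chance alone sets apart about 1 in 20.

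Differences from control that were not the same in the 2 tumor sets were found for 7 members by the test of late minus early arrays, which shares no control: 0.48 for Hspa8, −0.70 for Hsp90aa1, −0.40 for Hsph1, 0.62 for Dnaja1, −0.89 for Dnajb1, 0.38 for Hspd1 and 0.60 for Hspe1. Of all genes, 31.5% were higher and 38.3% lower in late than in early arrays, so such a difference was common across the array. For Hsp90aa1, Hsph1 and Dnajb1 the second brightest probe set gave the opposite sign.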

How the results depend on the processing

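The member counts (late 5 lower, early 6 lower and 1 higher, late against early 4 higher and 3 lower, all tumors 7 lower) depended most on the probe set. By the second brightest probe set of 7 members, chosen after seeing the data, 3 were higher and 2 lower in late, 0 higher in early, 1 lower in late against early, and 2 higher and 2 lower over all tumors. Signs then reversed in late arrays for Hspa8 (0.0845), Hsp90aa1 (0.18), Dnaja1 (0.44) and Dnajb1 (0.45), in early arrays for Hsp90aa1 (−0.59), Hsph1 (−0.55), Dnaja1 (0.18), Dnajb1 (0.17) and Hspa4 (0.11), between late and early for Hsp90aa1 (0.77), Hsph1 (0.41), Dnajb1 (0.28) and Hspa4 (−0.80), and over all tumors for Hsp90aa1 (0.0255), Dnaja1 (0.39) and Dnajb1 (0.39). By the mean of all probe sets, 1 was higher in late, 3 lower in early and 4 lower over all tumors, and Hspa8 (0.0254) and Dnaja1 (0.16) in late, Hsph1 (−0.24) in early, Hsph1 (0.00484) and Hspa4 (−0.35) between late and early, and Dnaja1 (0.10) over all tumors reversed. With blood cell covariates, 1 was higher and 2 lower in late, 3 lower in early, and 1 higher and 1 lower over all tumors, and Hspd1 (0.0529) and Hspa4 (0.0486) in early, Hspa4 (−0.0883) between late and early and Hspd1 (0.26) over all tumors reversed. In the training arrays alone 2 were higher between late and early and 3 lower over all tumors, and in the validation arrays alone 3 were lower in late, 3 in early and 2 over all tumors, where fewer arrays entered. With controls not shared and exchanged, 3 were lower in late.

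Hspd1, at 0.0087 in late arrays, took a minus sign in the training arrays (−0.0899), with controls not shared (−0.0955), after quantile normalization (−0.001965), with array weights (−0.0222), without the 3 arrays that stood apart (−0.00581) and with the replicate block (−0.17). The replicate block on the label number also turned Hsp90aa1 over all tumors (0.0196) and moved no count past 1.5 times. Of 102 pairs of same-numbered arrays, 34 had r over 0.1, with r from −0.468 to 0.521. In 2 of them the same-numbered array was the closest match in the other group. The rate for arrays of different numbers was not computed, so whether the number pairs arrays was not tested. Without each early array in turn, late lower stayed at 5, early lower ran from 5 to 6, late against early higher from 4 to 5 and lower stayed at 3, and all tumors lower ran from 6 to 7. Of 892 member values under alternatives, 794 kept direction and side of the threshold, 58 lost and 7 gained a call, and 33 reversed. The cause of these changes was not tested.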
